A study of Homo sapiens with 4 samples.

Results

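CREM, SIK1, PER1, GEM, ARC and CREB3L3 are 6 genes tied to the cAMP response, and they are described here in Hut78 cells, an established human line from a cutaneous lymphoma of T cells, after exposure to the compound CSH71 or none. The genes were taken by symbol from the array annotation, which gave 1 probe set for each, so that 6 of 53617 probe sets and 6 of 14884 named genes make up the group. They were selected on their differences between treated and untreated cells in these same arrays, so those differences are given for the 6 as a description and without a test. The 2 CSH71 samples were Hut78 cells exposed to 250 nM for 30 h, and the 2 untreated samples were the same line without compound. Both were grown in IMDM with serum, and total RNA of each was hybridised to 1 Affymetrix whole-transcript array. The labels list no vehicle for the untreated cells and do not say that duplicates were separate cultures, so errors and p-values reflect how far these particular samples lie apart, which may be technical variation alone. The study's text presents CSH71 as a compound directed at p38γ, a stress-activated kinase.

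Cyclic AMP is made by adenylyl cyclases when a receptor coupled to a stimulatory G protein is engaged, and it releases the catalytic subunits of protein kinase A. That kinase phosphorylates the transcription factors CREB, CREM and ATF1, which bind the cAMP response element in the promoters of their targets. CREM itself is such a target: an internal promoter of the gene yields ICER, a short repressor form that shuts the response off, and in T cells ICER is known to restrain cytokine genes such as IL2. SIK1 encodes a salt-inducible kinase that holds CRTC coactivators of CREB and class IIa histone deacetylases in the cytoplasm. PER1 is a repressor of the circadian clock with cAMP response elements among its known inputs. GEM is a small GTPase of the RGK family that inhibits voltage-gated calcium channels, ARC is an immediate early gene of neurons that acts at synapses, and CREB3L3 is a membrane-bound CREB relative of liver and gut that is released by cleavage.

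Promoter sequence was read from RefSeq (GRCh38.p14) because the letters of the cAMP response element can be looked for directly in these genes. The table had windows for 4 of the 6 genes, each running from 250 bases before an annotated transcription start to 50 after it: 7 for CREM, which has several starts, and 1 each for SIK1, PER1 and CREB3L3. Capitals mark the full element TGACGTCA, the short element TGACG that it contains, a 1-letter variant TGATGTCA, which was added after the windows had been seen, and the E-box CACGTG, each on either strand. The windows around starts 5 and 6 of CREM, which lie inside the gene, are shown with those of SIK1, PER1 and CREB3L3, every one read in the direction of its gene.
CREM, start 5, chr10:35194883-35195182, plus strand: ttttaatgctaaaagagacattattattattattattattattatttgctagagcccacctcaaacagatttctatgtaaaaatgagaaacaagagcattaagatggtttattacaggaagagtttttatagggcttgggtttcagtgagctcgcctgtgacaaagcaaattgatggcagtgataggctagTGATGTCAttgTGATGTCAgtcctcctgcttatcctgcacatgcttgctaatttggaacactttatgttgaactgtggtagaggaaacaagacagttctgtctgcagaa
CREM, start 6, chr10:35195600-35195899, plus strand: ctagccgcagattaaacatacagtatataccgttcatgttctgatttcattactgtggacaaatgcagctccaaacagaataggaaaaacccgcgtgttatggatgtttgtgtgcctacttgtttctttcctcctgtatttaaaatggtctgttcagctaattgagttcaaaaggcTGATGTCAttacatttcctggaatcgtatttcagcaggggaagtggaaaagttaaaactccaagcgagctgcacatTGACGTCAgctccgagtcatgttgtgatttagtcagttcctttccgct
SIK1, chr21:43427082-43427381, minus strand: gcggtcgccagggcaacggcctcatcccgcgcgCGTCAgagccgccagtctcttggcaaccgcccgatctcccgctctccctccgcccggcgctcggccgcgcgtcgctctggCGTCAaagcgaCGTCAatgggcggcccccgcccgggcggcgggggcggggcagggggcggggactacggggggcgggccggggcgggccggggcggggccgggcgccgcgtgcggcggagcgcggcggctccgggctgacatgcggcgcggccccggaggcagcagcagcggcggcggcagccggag
PER1, chr17:8152355-8152654, minus strand: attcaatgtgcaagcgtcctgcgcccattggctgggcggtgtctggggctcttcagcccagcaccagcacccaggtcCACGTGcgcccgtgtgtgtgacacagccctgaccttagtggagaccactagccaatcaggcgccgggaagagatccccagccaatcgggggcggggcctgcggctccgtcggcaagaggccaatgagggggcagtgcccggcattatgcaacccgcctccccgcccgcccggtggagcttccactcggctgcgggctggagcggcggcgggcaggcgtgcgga
CREB3L3, chr19:4153381-4153680, plus strand: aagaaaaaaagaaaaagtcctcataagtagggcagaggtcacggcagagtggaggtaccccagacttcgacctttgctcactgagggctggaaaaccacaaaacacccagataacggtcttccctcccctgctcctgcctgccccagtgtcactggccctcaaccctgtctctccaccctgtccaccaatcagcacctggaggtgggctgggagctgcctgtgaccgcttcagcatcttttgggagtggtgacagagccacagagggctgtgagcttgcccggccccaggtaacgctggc

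The full element occurred in the windows of CREM starts 6 and 7, which overlap and share the same copy. Its first base lay at position 2 from start 6 and at position -50 from start 7, counting the first transcribed base as 0. Over all 35116 windows of the same length, 1.85% held TGACGTCA. The variant TGATGTCA stood in 4 of the 7 CREM windows. That of start 5 had a pair of copies at -59 and -48, and the overlapping windows of starts 6 and 7 shared 1 copy. Of all windows 2.61% held at least 1 copy. The variant was added after the CREM windows had been seen, so nothing is read from this share. The window of SIK1 had 3 short elements, at -217, -137 and -126, and that of CREM start 3 had 2, at -178 and -68, where 24.6% of all windows held the short element. That of PER1 had none of these and held 1 E-box at -173, as did 7.26% of all windows. The CREB3L3 window had none of the 4. A search for the AP-1 letters TGANTCA (7.71% of all windows) and the full palindromic glucocorticoid response element (0.00285%) gave 0 matches in these 10 windows. A match of letters is a description of the sequence and shows neither binding nor use of a site. Bases outside the windows were not searched, so an absence of matches holds for the windows only.

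**Figure D1:**
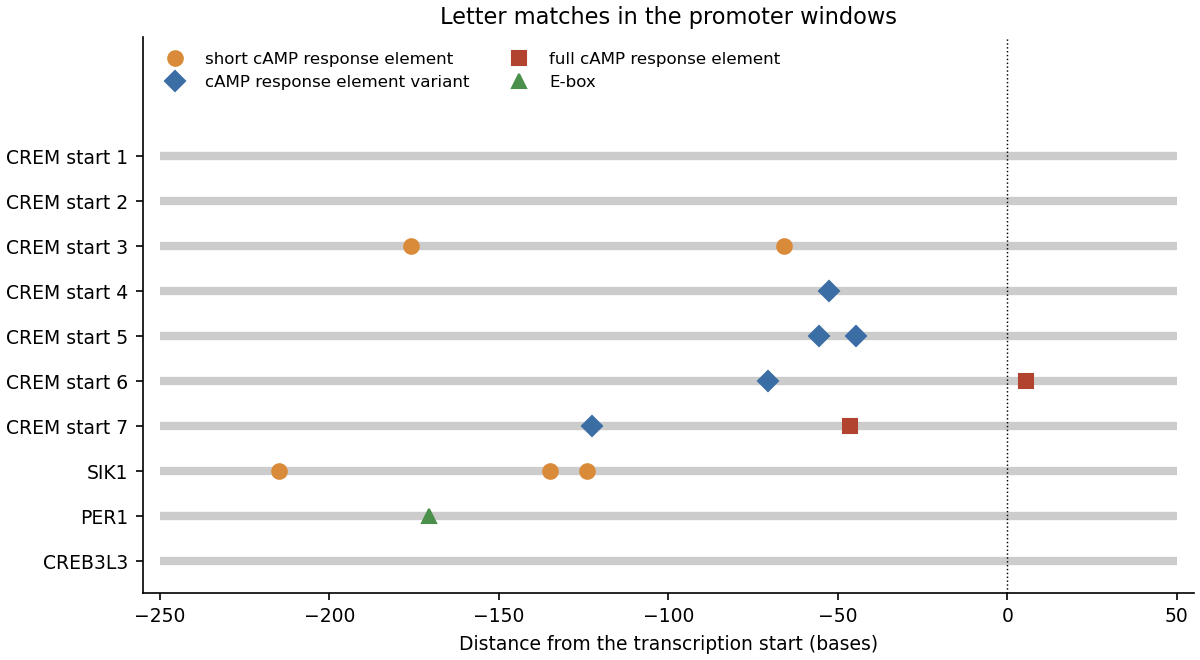
Positions of letter matches in the 10 promoter windows of CREM, SIK1, PER1 and CREB3L3, in bases from the annotated transcription start (dotted line at 0). Grey bars are the windows, symbols mark the middle of a match on either strand, and short elements inside a full element are not drawn; the full element appears at CREM starts 6 and 7 alone.

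Each array gave a deposited linear intensity for every probe set, with array medians between 71.5 and 81.1. They were compared as log2(intensity + 16), where a constant of 16 damps the noise of dim probe sets and understates their fold changes. A typical gene (the median of absolute log2 differences) differed by 0.17 to 0.24 between a CSH71 and an untreated array, by 0.19 between the CSH71 replicates and by 0.22 between the untreated replicates. Each level belongs to its own probe set, so levels are compared between samples and not between genes. In RNA from whole cultures, fewer cells with a transcript and less of it per cell cannot be told apart. Of the 13 T-cell markers listed, 8 were measured, and CD5, ZAP70, CD247 and LCK had values from 1018 to 2100 while CD2 and CD28 lay between 60.9 and 107. The summed level of these 8 was 7000 and 6471 on the CSH71 arrays, against 6665 and 6782 on the untreated ones. The CD3 chains were not analysed here. Markers of other cells were measured in part, 5 of 6 cytotoxic, 1 of 5 B-cell and 5 of 6 monocytic ones. So were 3 of 4 hepatocyte, 2 of 5 neuronal and 3 of 5 epithelial or fibroblast markers. In these lists limma called 0 genes. As it called only 0.047% of all genes, that says little about cell content. Of the epithelial list the adhesion molecule EPCAM had high values on all arrays (1943 and 2169 with CSH71, 2087 and 2036 without).

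CREM, SIK1 and PER1 were higher on both CSH71 arrays than on both untreated arrays, CREB3L3 and GEM were lower on both, and ARC overlapped. The sizes were far apart, from a 5.53-fold higher value for CREM to a 2.21-fold lower one for CREB3L3. The 6 genes therefore did not move as 1 group. Groups of arrays that do not overlap were common: CSH71 was higher without overlap in 15% of all 14884 genes and lower in 16.6%, 31.6% together, where 3 and 2 of the 6 genes did so. A difference of at least 2-fold was rarer, with 0.202% of genes higher and 0.0336% lower, and CREM and SIK1 were among the higher and CREB3L3 among the lower. By limma, 7 of 14884 genes passed an adjusted p of 0.05 (0.047%), 6 of them higher (0.0403%) and 1 lower (0.00672%), and 5.11% of genes had an unadjusted p under 0.05. CREM was the 1 of the 6 genes among those that passed, and it was not among them without untreated replicate 1 or without untreated replicate 2. Without CSH71 replicate 1, SIK1 and CREB3L3 were among them as well. Since the genes were chosen by this contrast, nothing is read from these counts.

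**Figure D2:**
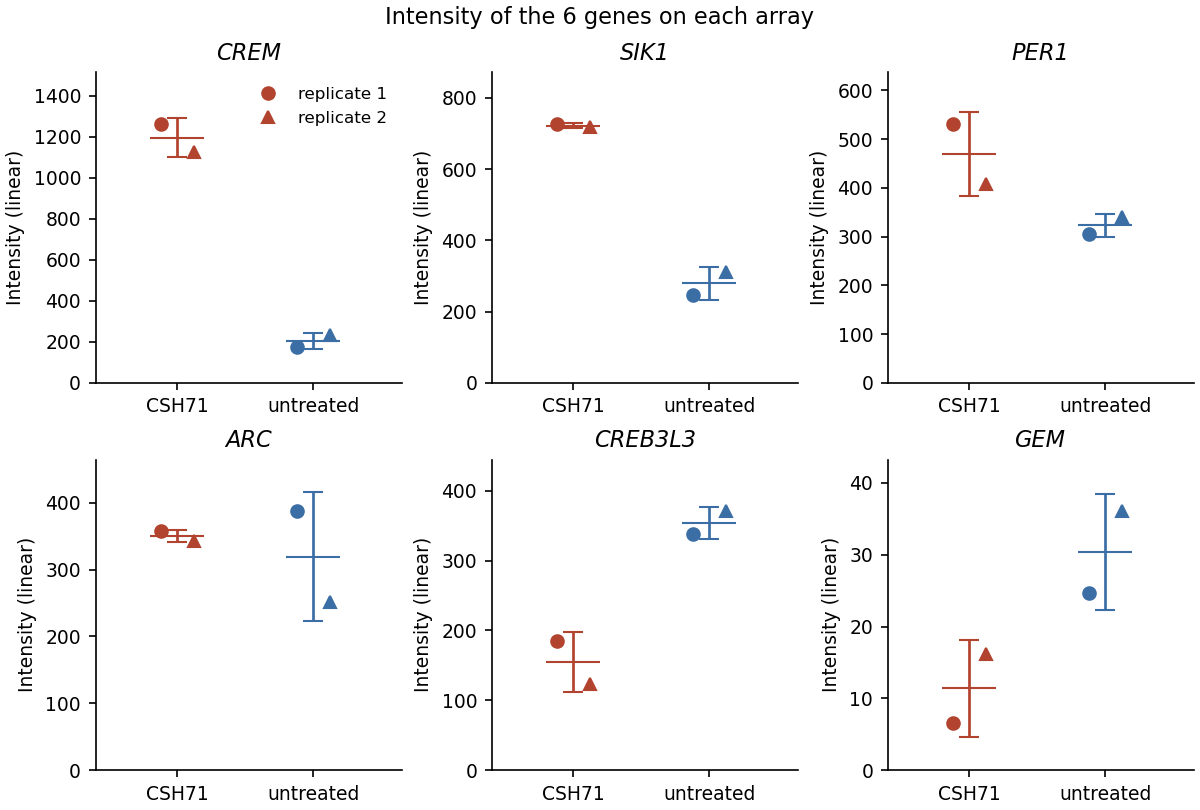
Linear intensity of the 6 genes on each array, CSH71 left and untreated right, with each vertical axis starting at 0 and scaled to its gene. Circles and triangles are replicates 1 and 2, horizontal lines are means and bars are SD (n = 2); ARC is the gene whose groups overlap.

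CREM had intensities of 1261 and 1126.5 on CSH71 replicates 1 and 2, against 176 and 232 on untreated replicates 1 and 2. Both treated values were far above both untreated values, and the gap was several times the distance between replicates. Group means were 1194 ± 95.4 in CSH71 cells and 204 ± 39.7 in untreated cells (SD, n = 2 each), a log2 fold change of 2.47 ± 0.20 (SE). Among all genes this was the difference of rank 2 from the top. Across the 4 possible pairs of a treated and an untreated array the log2 difference ran from 2.20 to 2.73, while replicates differed by 0.16 in the CSH71 group and by -0.37 in the untreated group (replicate 1 minus 2). The single CREM probe set (16703858) is annotated with a single transcript of the gene, and which forms its probes read was not examined. The long activator and repressor forms and ICER therefore cannot be told apart in this value, and the starts printed above cannot be given separate levels.

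The relatives of CREM lay much closer to 0. CREB1, the founding member of the family, had 644 and 630 in CSH71 cells against 614 and 726 in untreated cells, and its groups overlapped (log2 fold change -0.07 ± 0.18). ATF1 was not analysed here. CREBBP and EP300, the acetyltransferases that CREB recruits, stood at 0.04 ± 0.17 and -0.03 ± 0.17. The CRTC coactivators, which SIK kinases phosphorylate, were at -0.07 ± 0.18 for CRTC1, 0.10 ± 0.19 for CRTC2 and -0.25 ± 0.18 for CRTC3. Apart from CREM and CREB3L3, the list of the CREB family and its coactivators had 12 measured genes with log2 fold changes from -0.25 to 0.31 and a median of -0.07, against -0.01 for all genes. By limma 0 of the 12 passed an adjusted p of 0.05, and 0 had an unadjusted p under 0.05.

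SIK1 had 726 and 718 on the CSH71 arrays, against 247 and 311 on the untreated arrays. The treated values were nearly equal and lay above both untreated values. Means were 722 ± 6.03 with CSH71 and 279 ± 45.5 without (SD, n = 2 each), for a log2 fold change of 1.33 ± 0.18 (SE), rank 15 from the top of all genes and 2.52-fold. Array pairs gave 1.165 to 1.498. Its paralogs had overlapping groups: SIK2 was at 292 and 255 with CSH71 and 236 and 317 without, and SIK3 at 511 and 375 with CSH71 and 391 and 424 without. STK11, the kinase LKB1 that activates the family, was lower on both CSH71 arrays, at 591 and 596 against 721 and 720 in untreated cells (-0.27 ± 0.16, limma adjusted p = 0.999). Among the class IIa deacetylases that SIK kinases phosphorylate, HDAC4 was at -0.23 ± 0.19 (its dimmer second probe set gave 0.15), HDAC5 at 0.00 ± 0.20, HDAC7 at -0.16 ± 0.18 and HDAC9 at -0.05 ± 0.17. MEF2D, a transcription factor that these deacetylases repress, had 2904 and 2735 in CSH71 cells and 1959 and 1942 in untreated cells, a log2 fold change of 0.53 ± 0.17 that did not pass (limma adjusted p = 0.927). Without SIK1, 10 genes of this list were measured, with a median of -0.02, and by limma 0 passed while 1 had an unadjusted p under 0.05.

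PER1 had 531 and 408 with CSH71 and 306 and 340 without. All treated values exceeded all untreated ones, but CSH71 replicate 2 lay only a little above untreated replicate 2. Means were 470 ± 86.7 in CSH71 cells and 323 ± 24.3 in untreated cells (SD, n = 2 each), a log2 fold change of 0.51 ± 0.20 (SE). Pairs of arrays gave 0.25 to 0.77, and the CSH71 replicates alone differed by 0.37. The value stood at rank 420 of all genes. It was 0.33 without CSH71 replicate 1 and 0.69 without CSH71 replicate 2.

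The other clock genes did not follow PER1 as a group. PER2 overlapped, at 324 and 276 with CSH71 and 300.2 and 326 without. PER3 was dim and higher on both treated arrays, at 50.2 and 62.3 against 31.8 and 25.3 (log2 fold change 0.70 ± 0.19, limma adjusted p = 0.927). CLOCK, a positive factor of the loop, was lower on both, at 592 and 480 against 658 and 731 (-0.37 ± 0.19, limma adjusted p = 0.999). BMAL1, its partner, was at -0.07 ± 0.21, and the repressors CRY1 and CRY2 at 0.06 ± 0.17 and -0.20 ± 0.27. RORA, a nuclear receptor that acts on BMAL1, was at 0.39 ± 0.24 with overlapping arrays. Of 13 measured clock genes other than PER1, 7 were positive and 6 negative with a median of 0.04, and by limma 0 passed and 1 had an unadjusted p under 0.05.

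CREB3L3 was lower with CSH71, at 185 and 124 against 338 and 370.5 in untreated cells. Both treated values were below both untreated ones, and the CSH71 replicates lay well apart. Means were 154 ± 43.2 with CSH71 and 354 ± 23.2 without (SD, n = 2 each). The log2 fold change was -1.14 ± 0.22 (SE), the third lowest of all genes, and pairs of arrays gave -1.47 to -0.82. Its relatives CREB3, CREB3L1, CREB3L2 and CREB3L4, which are likewise released from membranes, had overlapping groups, with -0.13 ± 0.21, -0.09 ± 0.30, -0.18 ± 0.19 and -0.15 ± 0.18. Genes that CREB3L3 controls in liver and gut had a median of 0.00 over 12 measured, and 10 of the 12 were dimmer than the median gene. By limma 0 of them passed and 1 had an unadjusted p under 0.05, APOA1, an apolipoprotein of high-density lipoprotein, at 43.9 and 50.7 with CSH71 against 67.9 and 67.5 without (-0.41 ± 0.17, adjusted p = 0.971). FGF21, a secreted hormone of fasting, was at 0.38 ± 0.19. Of the 12, CSH71 was higher without overlap in 1, FGF21 (8.33%), and lower in 3 (25%), against 15% and 16.6% of all genes. Those lower were APOA1, APOC3 (-0.35 ± 0.20) and CPT1A (-0.23 ± 0.18). With 12 genes, nothing is read from these shares. The hepatocyte markers ALB, APOA1 and TTR, 3 of 4 listed, summed to 430.1 and 361 on the CSH71 arrays, against 376 and 376 on the untreated arrays, with 0 of the 3 listed at 0. Their part in the CREB3L3 value was not tested.

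GEM was the dimmest of the 6 relative to the rest of its arrays, at 6.61 and 16.2 with CSH71 and 24.6 and 36.0 without. All 4 values lay near the bottom of the array, at the 4.94th percentile of genes by mean, and no background level comes with the data. Means were 11.4 ± 6.76 in CSH71 cells and 30.3 ± 8.09 in untreated cells (SD, n = 2 each). The log2 fold change was -0.77 ± 0.23 (SE) with the constant of 16, -1.43 with 1 and -0.32 with 64, so its size depends on the constant chosen. The other RGK GTPases all had positive values, with RRAD at 0.28 ± 0.21, REM1 at 0.30 ± 0.19 and REM2 at 0.16 ± 0.21. By limma 0 of these 3 passed and 0 had an unadjusted p under 0.05, and REM2 was at -0.074 without CSH71 replicate 2.

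ARC had 357 and 344 on the CSH71 arrays, against 387 and 251 on the untreated arrays. The treated values fell between the untreated values, whose replicates were far apart. Means were 350.4 ± 9.64 with CSH71 and 319 ± 96.5 without (SD, n = 2 each), a log2 fold change of 0.16 ± 0.23 (SE). Without untreated replicate 1 the value was 0.46, and without untreated replicate 2 it was -0.14, so its direction rests on which untreated array is used. Neuronal markers were measured for 2 of 5 listed genes, SYP and MAP2, which summed to 232 and 234 with CSH71 and 313 and 188 without, with neither at 0. That sum, like ARC, was highest on untreated replicate 1 and lowest on untreated replicate 2. SYP had this order (194 and 172 with CSH71, 272.5 and 152 without). MAP2 instead was highest on CSH71 replicate 2 (38.54 and 62.15 with CSH71, 40.17 and 35.75 without). The part of these markers in the ARC value was not tested.

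**Figure D3:**
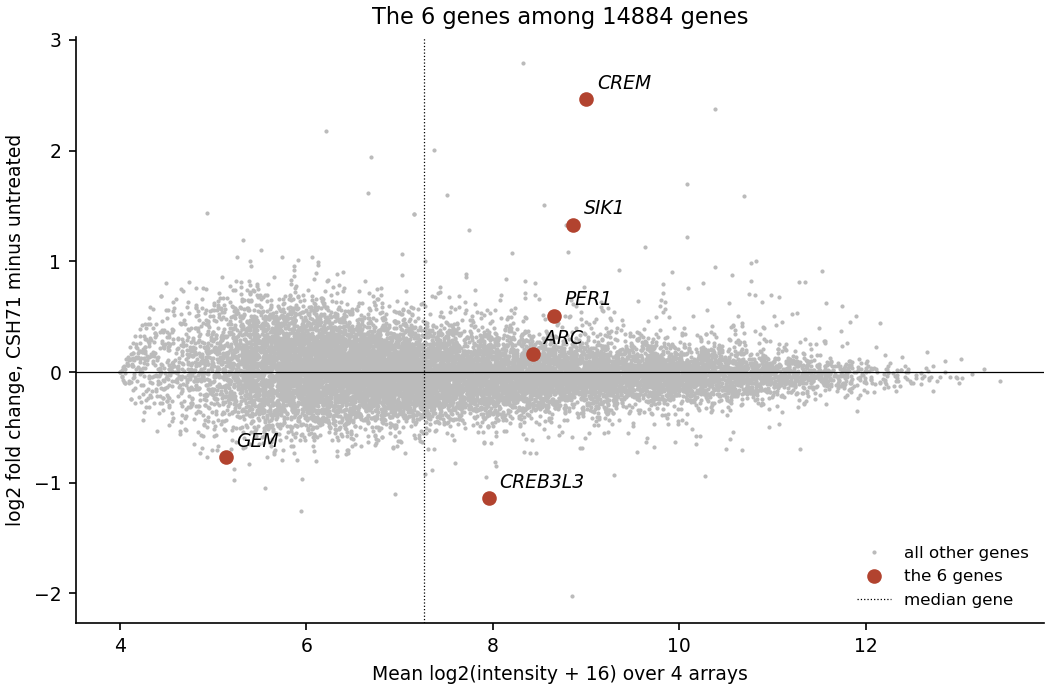
The log2 fold change (CSH71 minus untreated) of each of 14884 genes against its mean log2(intensity + 16) over 4 arrays, with the 6 genes in red and the median gene as a dotted line. CREM (2.47) and SIK1 (1.33) lie above the cloud, CREB3L3 (-1.14) below it, PER1 (0.51) at its upper margin, ARC (0.16) inside it, and GEM (-0.77) among the dim genes.

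The machinery that makes, degrades and reads cAMP was then followed through lists of genes. Receptors that raise cAMP had 13 measured genes, 8 positive and 5 negative, with a median of 0.03. ADRB1, the β1-adrenergic receptor, was at 254 and 186 with CSH71 against 121 and 139 without (0.68 ± 0.20, limma adjusted p = 0.927), and VIPR2, a receptor of vasoactive intestinal peptide, at 94.3 and 87.8 against 82.2 and 53.7 (0.37 ± 0.21, adjusted p = 0.999). GPR65, a proton-sensing receptor, was at 4844 and 4668 with CSH71 and 3823 and 4328 without (0.22 ± 0.17, limma adjusted p = 0.999). The prostaglandin and adenosine receptors PTGER4 and ADORA2A were at -0.18 ± 0.17 and -0.21 ± 0.18, and GNAS, the stimulatory G protein, at 0.03 ± 0.19.

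Of the 10 adenylyl cyclases, 4 were positive and 6 negative with a median of -0.10. ADCY8 was higher on both treated arrays but dim, at 27.5 and 42.4 against 14.9 and 10.2 (0.83 ± 0.21, limma adjusted p = 0.927). ADCY2 was lower and dim as well (-0.34 ± 0.17, limma adjusted p = 0.993), and ADCY10 overlapped (-0.38 ± 0.33). ADCY3 and ADCY7 were at -0.14 ± 0.18 and 0.07 ± 0.21. Of the phosphodiesterases 5 of 16 listed were measured, with a median of 0.26. PDE7B, which hydrolyses cAMP, had 1464 and 1352 with CSH71 and 795 and 857 without, a log2 fold change of 0.76 ± 0.17 (limma adjusted p = 0.870). PDE8A was at 0.26 ± 0.18 and PDE8B at -0.39 ± 0.21.

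Effectors and anchors had 9 measured genes of 20 listed, 2 positive and 7 negative, with a median of -0.11. Those measured were RAPGEF3, an exchange factor that cAMP activates directly (-0.21 ± 0.18), and 8 anchoring proteins of protein kinase A. Of these AKAP5 was higher on both treated arrays, at 181 and 226 against 109 and 124 (0.72 ± 0.19, limma adjusted p = 0.927), and AKAP12 overlapped (-0.22 ± 0.22). The subunits of protein kinase A were not analysed here. In each of the lists of receptors, cyclases, phosphodiesterases and effectors, limma passed 0 genes and 1 gene had an unadjusted p under 0.05. Those genes were ADRB1, ADCY8, PDE7B and AKAP5, all higher with CSH71. Of all genes 0.047% passed and 5.11% had such a p in either direction, so nothing is read from these small counts.

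Other targets of cAMP and CREB were mixed. Without CREM, SIK1, PER1, GEM and ARC, 18 were measured, 10 positive and 8 negative, and their median was 0.23 against -0.01 for all genes. CSH71 was higher without overlap in 8 of them (44.4%) and lower in 1 (5.56%), where all genes gave 15% and 16.6%. The higher share was not particular to this list, since the glucocorticoid receptor targets and neuronal activity-regulated genes, which share some of its genes, gave 53.8% and 46.7%. These lists were compiled with earlier results of these arrays known, so nothing is read from the shares. By limma 0 of the 18 passed. An unadjusted p under 0.05 was found for 4, all of them higher, against 5.11% of all genes in either direction. EGR1, a zinc finger factor of the immediate early response, had 300.5 and 303 with CSH71 and 87.8 and 90.0 without (1.599 ± 0.16, limma adjusted p = 0.0516), while its second, dimmer probe set gave 0.07. It passed without CSH71 replicate 1 (limma adjusted p = 0.00501) and without CSH71 replicate 2 (0.0111), and its adjusted p ran from 4.63e-08 to 0.826 over all alternatives. ATF3, a stress-induced factor that binds cAMP response elements, was at 67.9 and 89.4 with CSH71 against 30.0 and 39.3 without (0.90 ± 0.20, limma adjusted p = 0.861). DUSP1, a phosphatase of mitogen-activated protein kinases, was at 0.53 ± 0.17 (limma adjusted p = 0.927). In contrast FOS and FOSB, classical CREB targets, overlapped at -0.10 ± 0.21 and -0.07 ± 0.27. PCK1, SST and TH, textbook targets in liver and neuroendocrine cells, also overlapped, at -0.12 ± 0.25, -0.21 ± 0.29 and -0.11 ± 0.24. Such targets were not uniform. VGF was dim and higher on both treated arrays, at 78.75 and 64.71 against 45.65 and 44.23 (0.52 ± 0.18, limma adjusted p = 0.927). NPAS4 was higher on both as well (0.40 ± 0.20), and SCG2 overlapped at 0.36 ± 0.23.

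PER1 also belongs to the genes that the glucocorticoid receptor induces. The 13 other measured genes of that list had a median of 0.15, with 10 positive and 3 negative, and by limma 0 passed while 6 had an unadjusted p under 0.05, 5 higher and 1 lower. Over all genes, 5.11% had such a p in either direction. CSH71 was higher without overlap in 7 of the 13 (53.8%) and lower in 2 (15.4%), against 15% and 16.6% of all genes. This list too was compiled with earlier results of these arrays known, and nothing is read from its shares. SGK1, a kinase that regulates ion transport, had 1959 and 1907.5 with CSH71 and 525 and 646 without (1.70 ± 0.18, limma adjusted p = 0.0559). It passed without CSH71 replicate 1 (limma adjusted p = 0.00400) and without CSH71 replicate 2 (0.00571), and the alternatives gave it adjusted p-values between 1.67e-39 and 0.581. IL7R, a cytokine receptor of T cells, was at 0.71 ± 0.18 and BCL6, a transcriptional repressor, at 0.59 ± 0.17 (both limma adjusted p = 0.927). FKBP5 was lower on both treated arrays, at 1155 and 1154 against 1201 and 1298 (-0.11 ± 0.17, limma adjusted p = 0.999), and ZBTB16 also, at 428 and 406 against 592 and 648 (-0.55 ± 0.17, limma adjusted p = 0.927).

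The neuronal activity-regulated genes other than ARC had 15 measured members and a median of 0.18. By limma FOSL2, an AP-1 factor, was the 1 gene of the 15 that passed, at 338 and 295 with CSH71 against 66.3 and 66.6 without (2.01 ± 0.17, limma adjusted p = 0.0245). Its call was lost without untreated replicate 1 (limma adjusted p = 0.329) or untreated replicate 2 (0.377), and over all alternatives its adjusted p ran from 2.69e-12 to 0.377. CSH71 was higher without overlap in 7 of the 15 (46.7%) and lower in 0, against 15% and 16.6% of all genes. Of these 7, EGR1, JUNB and NPAS4 were also counted among the targets of cAMP and CREB. By limma 4 had an unadjusted p under 0.05, all higher, against 5.11% of all genes in either direction. At least 2-fold higher were 3, FOSL2, EGR1 and PTGS2, against 0.202% of all genes. PTGS2, the inducible cyclooxygenase, had 363 and 278 with CSH71 and 83.9 and 172 without (1.28 ± 0.31, limma adjusted p = 0.927), with its untreated replicates far apart. HOMER1, a scaffold protein of synapses, was at 0.70 ± 0.17 (limma adjusted p = 0.927). Taking all lists together without the 6 genes, 124 of 183 listed genes were measured, FOSL2 was the 1 that passed, and the median was 0.04. The lists share genes and were compiled with earlier results of these arrays known.

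**Figure D4:**
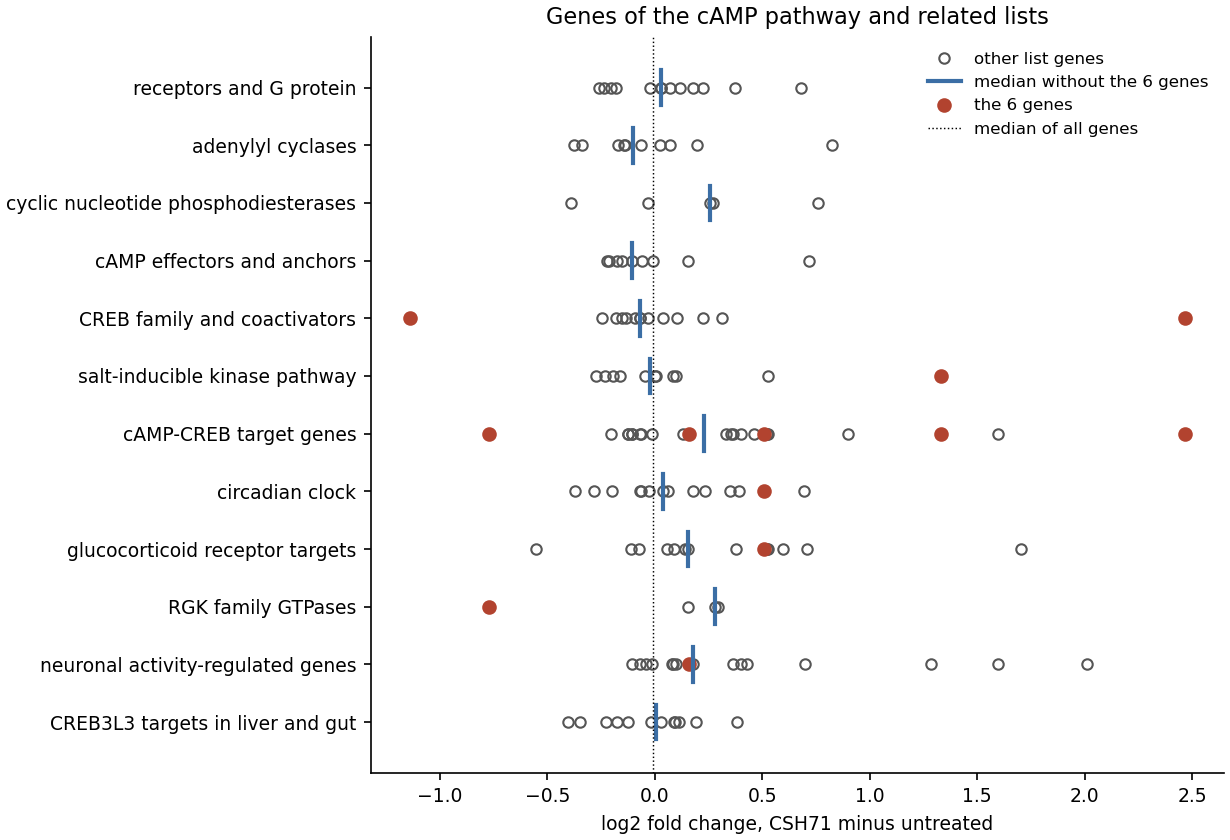
The log2 fold change (CSH71 minus untreated) of each measured gene of 12 lists, with the 6 genes as filled red points, other genes as open circles, the median without the 6 genes as a blue bar and the median of all 14884 genes as a dotted line. CREM and CREB3L3 lie at either end of the CREB family, whose other genes sit between -0.25 and 0.31.

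Profiles over the 4 arrays were compared by the root mean square difference of centred log2 values, among 7437 genes brighter than the median gene. CREM was nearest to CD69, an early activation marker of T cells (0.11), then to JUN (0.16) and FOSL2 (0.26), both AP-1 factors. CD69 had 3016 and 3077 with CSH71 and 541 and 612 without. SIK1 was nearest to JOSD1, a deubiquitinase gene (0.06), CEMIP2, a hyaluronidase gene (0.10), and RGS16, a regulator of G-protein signalling (0.12). JOSD1 had 1667 and 1613 with CSH71 and 637 and 755 without, so that, as for SIK1, the treated arrays were close and untreated replicate 1 was lowest. PER1 was nearest to PLK3, a polo-like kinase (0.04), IER2, an immediate early gene (0.05), and YPEL5 (0.05). IER2 had 483 and 382 with CSH71 and 293 and 298 without, and PLK3 245 and 183 with CSH71 and 146 and 160 without, which repeats the higher CSH71 replicate 1 of PER1.

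CREB3L3 was nearest to TLR5, a receptor for flagellin (0.12), RSAD2, an interferon-induced gene (0.14), and HHIP, a hedgehog-binding protein (0.16). TLR5 had 191 and 133 with CSH71 and 288 and 363 without, and like CREB3L3 it was lowest on CSH71 replicate 2. GEM was nearest to KLHL31 (0.12), LINC00891 (0.15) and SFR1 (0.15). ARC was nearest to KRTAP10-2, a hair keratin-associated protein (0.01), UCN3, a neuropeptide (0.03), and ELMOD1 (0.03). UCN3 had 922 and 889 with CSH71 and 1008 and 691 without, so that the shape shared with ARC was the distance between the untreated replicates. With 4 arrays many genes have similar profiles, and nearness is a description only.

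**Figure D5:**
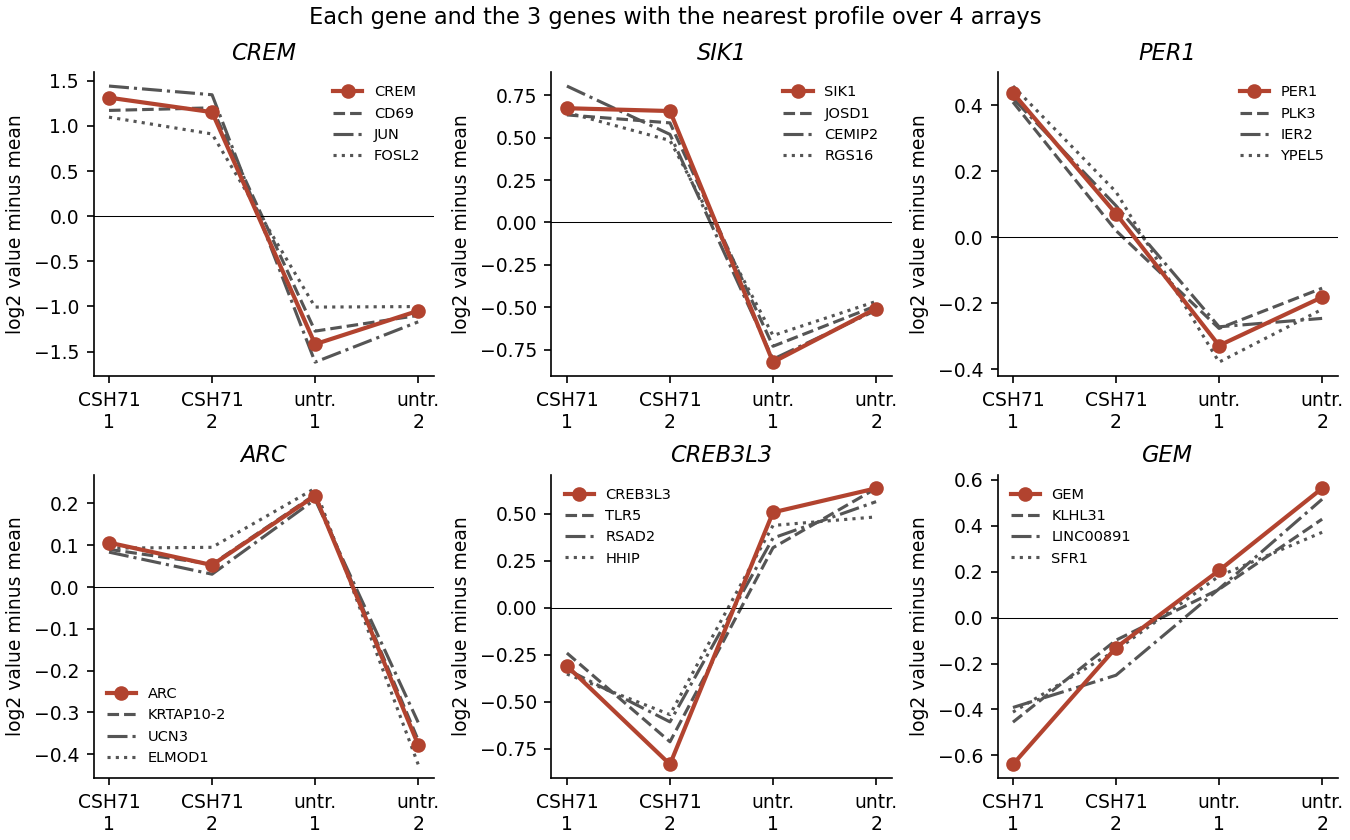
Centred log2(intensity + 16) values of each of the 6 genes (red) and of the 3 genes with the nearest profile (grey) on CSH71 replicates 1 and 2 and untreated replicates 1 and 2. Lines only join the points of a gene; the ARC panel is set apart by untreated replicate 2, while CREM and SIK1 separate the treated from the untreated arrays.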

How the data were processed

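Total RNA of 4 Hut78 samples was hybridised to Affymetrix whole-transcript arrays, 1 sample each, and group and replicate number were read from the sample titles. The deposited values are linear intensities, made by the authors with Affymetrix Expression Console, per the submitters' processing notes; for its version, summarisation, background correction and normalization, the sources used here give nothing. The values carry no detection call, 149 to 375 per array are exactly 0, and precision is limited by having 4 arrays. Gene names came from the platform annotation: 1 symbol for 16098 of 53617 probe sets, several for 0 and none for 37519. All 16098 entrez identifiers were found in RefSeq (GRCh38.p14), and 0 names needed updating. Where a gene had more than 1 probe set (779 genes), the brightest by mean log2 value stood for it, leaving 14884 genes.

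Values were taken as log2(intensity + 16), and limma (version 3.58.1, R 4.3.3) fitted 2 group means per gene with Benjamini-Hochberg adjustment over 14884 genes, where an adjusted p under 0.05 was a call. SE values are limma's. The fit was run on simulated data with independent noise and planted differences. Array effects and technical replication were not simulated, so that run says nothing on how they affect the calls. The 6 genes, the lists, the naming rule and the alternatives were chosen with earlier results of these data known. Besides the 6 genes, the rule named the 3 genes of each list with the smallest p, any gene called in a list, and the 3 nearest profiles of each of the 6; other list genes are named where a result turns on them. Profiles were centred on each gene's mean before they were compared. Promoter windows came from RefSeq and were searched on both strands for exact letters. Figures were drawn with matplotlib 3.10.9.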

Additional observations from a re-analysis of the deposited data

How the results depend on the processing

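CREM, SIK1, PER1 and CREB3L3 kept their direction in all 14 alternatives in which they were fitted and GEM in its 13, being left out when the dimmest 40% of genes were removed. ARC did so in 13 of 14. Most of this was fixed in advance. Alternatives that change only the test, the genes fitted or the use of further probe sets leave these fold changes as they are. For a gene whose groups do not overlap, another constant or 1 array fewer cannot turn the sign. The log2 fold changes moved by more than the spread between replicates for CREM with a constant of 64 (2.23) and for GEM with 1 (-1.43) or 64 (-0.32). The constant enters the value directly. Removal of 1 array could not exceed that spread, which comes from the same replicate differences, so this measure does not test array removal. With 1 array left out at a time, the ranges were 2.28 to 2.65 for CREM, 1.17 to 1.49 for SIK1, 0.33 to 0.69 for PER1, -1.02 to -0.52 for GEM, -0.14 to 0.46 for ARC and -1.40 to -0.88 for CREB3L3. The call of CREM was absent after quantile normalization, with a constant of 1, with all probe sets fitted and without either untreated array. SIK1 and CREB3L3 were called beside CREM with the replicate block, after median centring, with a constant of 64, with a variance prior that follows intensity and without CSH71 replicate 1, and SIK1 also without the dimmest 40% of genes.

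The count of genes that limma called was 7, and it was 28 with the replicate block, 43 after median centring, 33 with a constant of 64, 11 without the dimmest 40% of genes and 143 with a variance prior that follows intensity. Quantile normalization gave 0 calls and 927 genes with an unadjusted p under 0.05, a constant of 1 gave 0 and 768, and fitting all probe sets gave 0 and 538. The count ran from 0 to 29 with 1 array left out: 0 without untreated replicate 1 (794 unadjusted), 0 without untreated replicate 2 (609 unadjusted), 29 without CSH71 replicate 1 and 20 without CSH71 replicate 2. Of the 124 list genes, 1 was called, against 4 with the replicate block, 4 after median centring, 3 with a constant of 64, 3 without the dimmest genes, 10 with the variance prior, 0 after quantile normalization, 0 with a constant of 1, 0 with all probe sets, and 0 to 3 with 1 array left out. Apart from array removal and the constant, the cause of these shifts was not tested.

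The replicate numbers are not stated to mark a shared batch. Over genes, the replicate differences of the groups had a correlation of -0.29, and a crossed pairing, chosen after seeing the data, called 0 genes. With 1 array left out, the sign turned for ADCY10 (-0.91 to 0.16, positive without CSH71 replicate 1), REM2 (-0.074 to 0.39, negative without CSH71 replicate 2) and AKAP12 (-0.45 to 0.0050, positive without untreated replicate 1). It also turned, negative without untreated replicate 2, for ELMOD1 (-0.14 to 0.52), KRTAP10-2 (-0.15 to 0.44) and UCN3 (-0.15 to 0.38).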
